A study of Mus musculus with 2 samples.

Results

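Single-nucleus RNA sequencing of mouse thalamus gave 1656 glutamatergic nuclei that carried Ebf2, Ebf3, Sim1, Lmx1a or Tfap2d, out of 38150 nuclei in all. A nucleus was a member if it had at least 1 UMI (unique molecular identifier, a counted RNA molecule) of Slc17a6, the vesicular glutamate transporter of subcortical neurons, 0 UMIs of the GABA-synthesis genes Gad1 and Gad2, and at least 2 UMIs summed over the 5 transcription factor genes. All donors were female, of the C57BL/6J strain and 3 months old, and each library pooled equal numbers of nuclei from the operated-side thalamus of 4 mice on day 21 after surgery. The sham library came from mice with a burr hole and no removal of cortex, and the injury library from mice with cortical ablation injury, in which sensory-motor cortex was removed by suction on 1 side. The nuclei were sorted after staining with propidium iodide, a DNA dye. With 1 library per group there is no replicate check and no test, and every 95% interval covers counting error only, not the spread between mice. The intervals of RNA levels and of their ratios also leave out the spread between nuclei.

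EBF proteins are helix-loop-helix transcription factors that act in the differentiation of several neuron types. SIM1 is a partner-dependent helix-loop-helix factor needed for oxytocin and vasopressin neurons of the hypothalamus, LMX1A is a LIM-homeodomain factor best known from midbrain dopamine neurons, and TFAP2D belongs to the AP-2 family and marks neurons of the midbrain tectum. Reelin, the product of Reln, is a secreted glycoprotein that binds lipoprotein receptors and guides neuronal migration in development. None of the 5 rule genes is a usual marker of thalamic relay neurons, which project to the cortex.

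The sham library held 728 members and the injury library 928. Members were 4.45% of sham nuclei (95% interval 4.14 to 4.77%, 728 of 16373) and 4.26% of injury nuclei (4.00 to 4.54%, 928 of 21777). As a share of nuclei with Slc17a6 and without Gad1 and Gad2, they were 9.07% in sham (8.45 to 9.72%, of 8023) and 10.98% in injury (10.3 to 11.7%, of 8451), a log2 ratio of 0.28 (0.13 to 0.42). The members were therefore a nearly equal part of all nuclei and a somewhat larger part of the glutamatergic nuclei of the injury library. The log2 ratio of the glutamatergic shares was 0.38 (0.21 to 0.55) with at least 3 UMIs of the 5 genes and 0.21 (0.05 to 0.37) without called doublets. Without the clusters described below that came mostly from the injury library or from called doublets, those shares were 7.55% (6.98 to 8.16%) and 8.09% (7.51 to 8.70%). Leaving out clusters picked for holding few sham nuclei lowers the injury share by construction. Called doublets among the other glutamatergic nuclei stayed in. Depth was close in both, with a median of 9285.5 UMIs and 3621.5 genes per member in sham and 8987.5 UMIs and 3568.5 genes in injury. In all, 7936949 UMIs were counted in sham members and 10039809 in injury members.

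The rule's threshold lay on a slope rather than at a gap. In sham, 217 glutamatergic nuclei had exactly 2 UMIs of the 5 genes, just inside, and 355 had exactly 1, just outside. In injury, the numbers were 228 and 414. Nuclei just outside shared a feature with the members: Reln, which the rule did not use, was detected in 27.6% of sham and 27.8% of injury nuclei with 1 UMI, against 7.06% and 8.05% with 0 UMIs and 35.9% and 31.6% with 2 UMIs. Background counts were gauged in nuclei with at least 10 UMIs of oligodendrocyte markers, a cell type that should lack these genes. Of those, 1.10% of 453 in sham and 1.33% of 976 in injury had 2 or more UMIs of the 5 genes, at a lower median depth of 2150 and 2352 UMIs. A few nuclei could hold many of these UMIs: in sham, 15 Ebf2 UMIs lay in 2 nuclei. Whether such counts came from free RNA or from droplets with 2 nuclei was not tested.

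The members were labelled glutamatergic neurons with Ebf3, Sim1 and Lmx1a, but few single nuclei had UMIs of both Sim1 and Lmx1a. Among all glutamatergic nuclei, Sim1 and Lmx1a were found together in 5 sham and 8 injury nuclei, 0.59 and 0.66 times the number expected if detection were independent within each of 10 bins of depth. Sim1 with Tfap2d gave 0.53 and 0.33 times, and Lmx1a with Tfap2d 0.36 times in sham, with 2 nuclei, and 0 nuclei in injury. Each pair was thus found together no more often than independent detection gives, but the counts are small: the intervals of all these ratios reached past 1 except that of Lmx1a with Tfap2d in injury, so avoidance of one gene by another is not shown. Ebf3 was found with Sim1 at 4.94 and 3.13 times the expected number, with Lmx1a at 4.46 and 4.20 times and with Tfap2d at 5.95 and 5.93 times. Ebf2 was found with Ebf3 at 7.15 and 6.24 times and with Lmx1a at 8.36 and 7.26 times that number, but with Sim1 at 1.83 and 2.36 times.

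**Figure D1:**
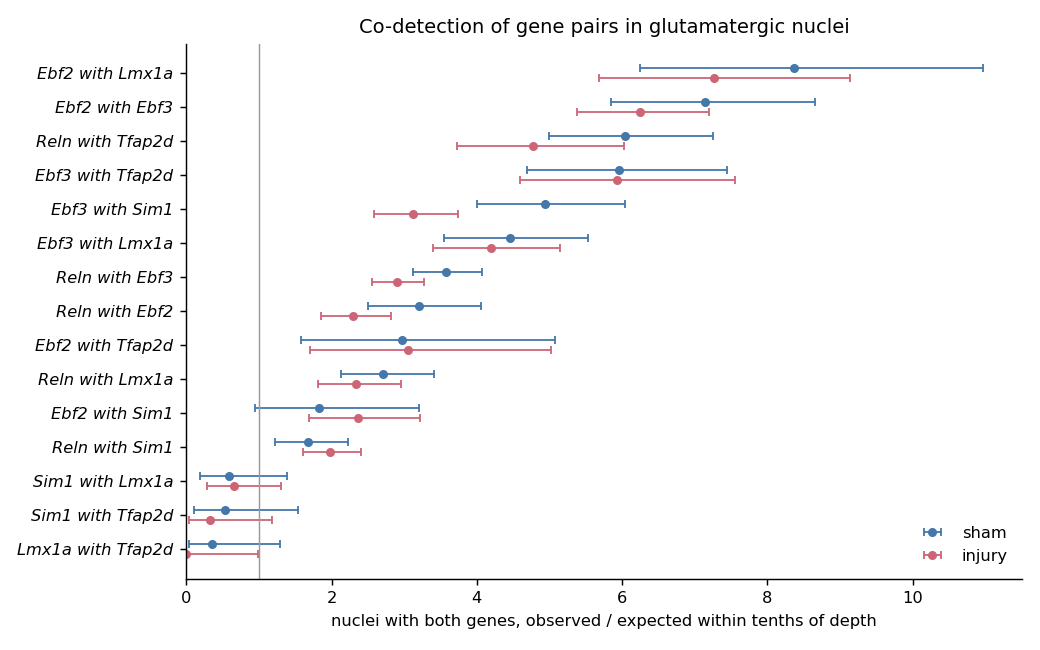
Nuclei with both genes of a pair divided by the number expected from independent detection within 10 bins of depth (x axis, no unit), for 15 gene pairs (y axis) among glutamatergic nuclei. Points are the 2 libraries, bars are 95% Poisson intervals of the observed count, and the grey line marks a ratio of 1. Pairs within Sim1, Lmx1a and Tfap2d have points below 1 with bars that mostly cross it, and Ebf3 with Sim1, Lmx1a or Tfap2d lies at 3.13 or above.

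Within the members, 68.0% of sham and 62.5% of injury nuclei carried exactly 1 of Sim1, Lmx1a and Tfap2d. EBF genes alone were found in 30.6% and 36.4%. More than 1 of the 3 was found in 10 sham members (1.37%) and 10 injury members (1.08%). Many members had no EBF UMI: Sim1 was the only rule gene found in 103 sham and 168 injury members, Lmx1a in 87 and 71, and Tfap2d in 43 and 20. Each member was then assigned to its leading gene, the one with the most UMIs, with Ebf2 and Ebf3 summed. Ebf2 or Ebf3 led in 351 sham (48.2%) and 497 injury members (53.6%), Sim1 in 135 (18.5%) and 218 (23.5%), Lmx1a in 118 (16.2%) and 111 (11.96%), and Tfap2d in 65 (8.93%) and 46 (4.96%). The rest, 59 sham (8.10%) and 56 injury members (6.03%), were tied.

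The leading genes stood apart in level, which the assignment itself brings about. Levels are given as CPM, counts per 1000000 UMIs of the summed nuclei. Sim1 stood at 333 CPM in sham and 353 CPM in injury nuclei that it led, and at 0.766 and 3.09 CPM in Lmx1a-led nuclei. Lmx1a stood at 329 and 306 CPM where it led and at 1.88 and 0.814 CPM in Sim1-led nuclei. Tfap2d stood at 293 and 311 CPM where it led, and in Lmx1a-led nuclei no UMI was counted in either library. Ebf3 did not disappear from the nuclei led by other genes: it stood at 32.0 and 36.6 CPM in Sim1-led, 36.8 and 32.4 CPM in Lmx1a-led and 36.6 and 63.3 CPM in Tfap2d-led nuclei. Reln was highest in Tfap2d-led nuclei, at 374 CPM in sham and 335 CPM in injury, and 76.9% and 65.2% of those nuclei had a UMI of it. The lowest Reln levels were those of Lmx1a-led nuclei, 65.1 and 69.5 CPM, and the glutamatergic nuclei with 0 UMIs of the 5 genes had 14.4 and 15.5 CPM.

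**Figure D2:**
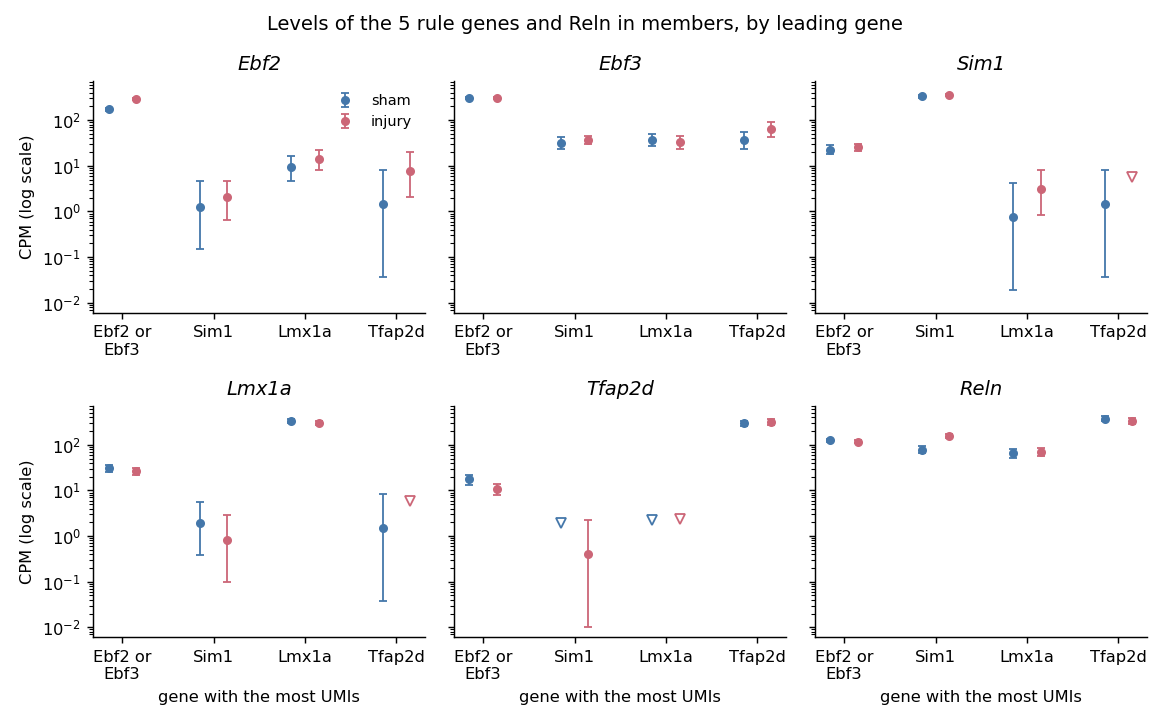
Level of each rule gene and of Reln (y axis, CPM, log scale) in members grouped by their leading gene (x axis), in the sham and injury libraries. Points are levels of the summed nuclei, bars are 95% Poisson intervals, and open triangles mark 3 UMIs where no UMI was counted. Reln is highest where Tfap2d leads, at 374 CPM in sham and 335 CPM in injury.

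Some genes that the rule did not use were higher in members than in the other glutamatergic nuclei in both libraries. Of 11190 genes with at least 50 UMIs in the members of each library, 540 were at least 2 times as high in members in both, and 25 at least 8 times. That floor was set on the members alone, which favours genes high in them, and genes lower in members were not counted. Postn, which encodes the matrix protein periostin, stood at 9.58 CPM in sham members and 18.03 CPM in injury members against 0.286 and 0.636 CPM in nuclei with none of the 5 genes. Of its member UMIs over both libraries, 119 lay in cluster 13 and 75 in cluster 7 of those described below. Cluster 13 came mostly from the injury library. Uncx, a homeobox gene, stood at 12.5 and 17.3 CPM against 0.640 and 0.835 CPM, and Calcr, the calcitonin receptor, at 12.5 and 21.6 CPM against 0.708 and 0.536 CPM. Others among the genes with the largest folds were Ttc6, Adam33, Oxt, Lmx1b, Frem1 and 3 transcripts without a named function, 9030622O22Rik, 4921518K17Rik and 4930438E09Rik. The last stood at 21.5 and 38.05 CPM against 0.136 and 0.162 CPM, but it lies inside Ebf2 on the opposite strand (chr14:67332042-67397742 within chr14:67233292-67430918, GRCm38), and 4921518K17Rik lies opposite Ttc6. Whether counting used strand was not stated, so reads of these pairs cannot be told apart.

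Each leading gene had partner genes that were higher in its nuclei than in the other members in both libraries. In Sim1-led nuclei Oxt, which encodes oxytocin, stood at 73.5 CPM in sham and 39.9 CPM in injury against 0.473 and 1.19 CPM in the other members, and Stk32a, Tns1, Sfta3-ps and B230323A14Rik followed. Several of these were leading genes of different clusters described below, counted over both libraries. Oxt had 163 UMIs in cluster 11, Tns1 and Stk32a 75 and 86 in the mostly-injury cluster 14, and B230323A14Rik 220 in cluster 6. In Lmx1a-led nuclei Lmx1b, the closest relative of Lmx1a, stood at 41.4 and 51.0 CPM against 6.64 and 7.09 CPM, with D5Ertd615e, Skap1 and Pappa2 beside it. In Tfap2d-led nuclei the secreted guidance gene Sema3c stood at 64.5 and 86.3 CPM against 18.3 and 21.0 CPM, and Itga8, an integrin subunit, at 96.7 and 123 CPM against 27.8 and 23.6 CPM. In EBF-led nuclei the partners included Chrnb3, a nicotinic acetylcholine receptor subunit, at 10.8 and 14.8 CPM against 0.967 and 1.65 CPM, and Ano1, a calcium-activated chloride channel, at 85.0 and 118 CPM against 4.59 and 20.5 CPM. Both of these are also among the leading genes of a small habenular-like cluster described below.

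Other genes of the EBF, SIM, LMX and AP-2 families and their partners were also measured. Ebf1 stood at 515 CPM in sham and 485 CPM in injury EBF-led members, 102 and 202 CPM in Sim1-led, 137 and 208 CPM in Lmx1a-led and 344 and 431 CPM in Tfap2d-led members, against 63.8 and 68.5 CPM in nuclei with none of the 5 genes. Ebf1 was thus above that level in every class although the rule did not use it. Zfp521, a zinc-finger partner of EBF proteins, stood at 138 and 130 CPM in members against 38.6 and 45.7 CPM, whereas the related Zfp423 was lower in members, at 130 and 148 CPM against 240 and 282 CPM. Otp, a homeobox gene of hypothalamic neuroendocrine cells, stood at 9.42 and 20.3 CPM in Sim1-led members and had no UMI in Lmx1a-led or Tfap2d-led members of either library.

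The transmitter and peptide genes did not follow a single identity. Slc17a7, the vesicular glutamate transporter gene best known from cortical neurons, stood at 9.95 CPM in sham members and 13.5 CPM in injury members, against 28.4 and 27.6 CPM in nuclei with none of the 5 genes. Nos1, the neuronal nitric oxide synthase, stood at 29.2 and 30.4 CPM in members against 5.76 and 7.55 CPM. Adcyap1, which encodes the peptide PACAP, stood at 19.4 and 10.3 CPM against 4.22 and 3.502 CPM, and Tac1, which encodes substance P, at 13.1 and 6.87 CPM against 2.15 and 1.77 CPM. Both peptide genes were found in every leading-gene class in both libraries.

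Marker lists placed the members only in part. Thalamic relay markers (8 genes, among them Tcf7l2, Rora and Prkcd) summed to 3756 CPM in sham and 3622 CPM in injury members, against 8709 and 8577 CPM in nuclei with none of the 5 genes. The relay-marker sum was thus lower in members but far from absent. Tcf7l2 made up only 243 and 242 CPM of it in members. In cluster 14 of those described below, with no called doublet, the sum was 1613 CPM with 1 of the 8 genes at 20 UMIs or more. The sum alone thus does not show RNA of relay neurons, and the part of such RNA in other results was not tested. The relay-marker sum stood highest in cluster 5, at 6780 CPM against 2693 CPM in the other members, and 94.6% of the nuclei of that cluster were called doublets. Subthalamic or mammillary markers (7 genes) summed to 38.1 and 37.2 CPM against 2.53 and 2.94 CPM, and paraventricular hypothalamic markers (7 genes) to 32.4 and 41.5 CPM against 3.08 and 3.79 CPM. Tectal or pretectal markers (7 genes) summed to 8.44 and 6.87 CPM against 2.79 and 3.29 CPM, with En2 and Pou4f2 at 0 in members. Habenular markers (7 genes) summed to 399 and 646 CPM against 406 and 505 CPM, and their log2 ratio, injury over sham, in members was 0.70 (0.63 to 0.76), with 6 of 7 higher in injury and none at 0. These markers stood highest in clusters 9 and 8 of those described below, at 9179 and 3429 CPM, which held 27 and 14 sham and 43 and 39 injury nuclei, and 94.3% of the nuclei of cluster 8 were called doublets. Nwd2 alone stood at 3294 CPM in cluster 8. It stood at 370 CPM in the members outside that cluster, where the list summed to 388 CPM. The habenular sum and its ratio thus rest mostly on 1 gene. The part of habenular RNA in other results was not tested. The GABAergic list (7 genes) summed to 65.6 and 62.6 CPM against 9.15 and 12.5 CPM, but only 1 of the 7 genes had at least 20 UMIs in members, so the sum rests mostly on a single gene. Of its genes, Gad1 and Gad2 were at 0 in members by the rule, and Slc32a1, the vesicular GABA transporter, had 3 UMIs in sham and 5 in injury members. Dopaminergic markers (5 genes) summed to 74.2 and 72.4 CPM against 27.3 and 26.4 CPM, and Cajal-Retzius markers (7 genes, among them Reln) to 171 and 177 CPM against 38.2 and 37.99 CPM. Reln alone made up 132 CPM of the last list in members of each library. Trp73, another gene of that list, was lower in members, at 0.378 and 0.598 CPM against 2.03 and 2.49 CPM.

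Clustering without the 5 rule genes, Reln and Slc17a6 gave 15 clusters, more than the 4 leading genes. The agreement between cluster and leading gene was weak over all members, with an adjusted Rand index of 0.0489. Of the members led by 1 gene, 53.2% of Tfap2d-led members lay in cluster 0, 47.6% of Lmx1a-led members in cluster 4 and 41.9% of Sim1-led members in cluster 1, while no cluster held more than 14.6% of the EBF-led members. Read the other way, cluster 0 was 60.8% EBF-led and 28.9% Tfap2d-led, cluster 4 was 65.3% Lmx1a-led and cluster 1 was 53.4% Sim1-led. Cluster 0 (111 sham and 93 injury nuclei) had Tfap2d, Bnc2, Col15a1, Sema3c and Reln as its leading genes by fold over the other members. Cluster 4 (89 and 78) had as leading genes D5Ertd615e, Lmx1a, Lmx1b, Zbbx and Cpne8, with Ddc, the aromatic amino acid decarboxylase, among its first 10 genes. Those of cluster 1 (103 and 174) were Otp, Calcr, Gm27199, Peg10 and Sfta3-ps, with Sim1 and Trhr, a thyrotropin-releasing hormone receptor gene, among its first 10. Rule genes among these leading genes had been kept out of the clustering.

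Smaller clusters held the extremes. Cluster 9 (27 sham and 43 injury nuclei) was habenular-like: 4 of 7 habenular markers had at least 20 UMIs, their sum was 9179 CPM against 292 CPM in the other members, and Chat, the acetylcholine-synthesis gene, Chrna3, Chrnb3 and Slc5a7 were among its leading genes. All its nuclei were EBF-led. Cluster 11 (11 and 15 nuclei) was paraventricular hypothalamic-like, with 3 of 7 such markers at 20 UMIs or more and Oxt at 631 CPM against 3.61 CPM in the other members. Of its nuclei, 84.6% were Sim1-led. Cluster 3 (18 and 20 nuclei) had Ebf2 at 1792 CPM, with Cpa6 and Cdh6, and cluster 7 (34 and 23) had Ebf3 at 457 CPM with Foxd2os, Postn and Igf1. Both were EBF-led, in 100% and 94.7% of nuclei, and neither was given a cell type name.

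Of the clusters, 5 bore directly on any comparison of the libraries. Cluster 13, led by Corin and Adgrd1, held 1 sham and 49 injury nuclei, and cluster 14, led by Agtr1a and Tns1, held 3 and 37. Whether such a cluster is a cell type or a property of that library cannot be told apart. Clusters 5, 8 and 10 (128 sham and 180 injury nuclei) were mixed: 94.6%, 94.3% and 100% of their nuclei were called doublets, that is, droplets that may hold 2 nuclei, and cluster 10 was led by oligodendrocyte genes such as Gjc3, Aspa and Mobp. Among all members 19.5% in sham and 27.9% in injury were called doublets. The shares were 14.8% and 20.1% of glutamatergic nuclei, and 13.3% and 17.8% of all nuclei. The number called was set by library size, so a larger share of all nuclei in the injury library was built in. Values are therefore also given without these 5 clusters.

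**Figure D3:**
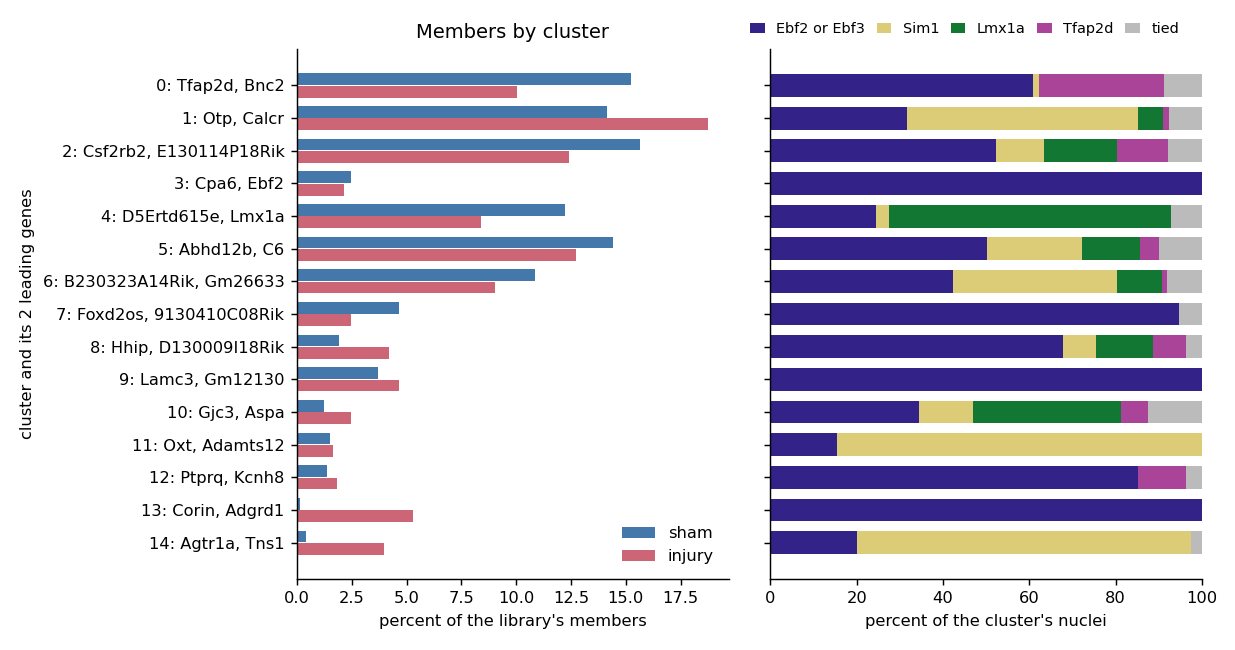
Left, percent of the members of each library (x axis) in each of 15 clusters (y axis, with 2 leading genes). Right, percent of the nuclei of each cluster that were led by each rule gene (x axis). Clusters 13 and 14 hold 5.28% and 3.99% of injury members but 0.137% and 0.412% of sham members, and cluster 4 is 65.3% Lmx1a-led.

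Sham and injury libraries were then compared, to ask what differed in these neurons 21 days after loss of the cortex. The leading-gene shares came first. The Sim1-led share had a log2 ratio, injury over sham, of 0.34 (0.02 to 0.66), the Lmx1a-led share one of -0.44 (-0.83 to -0.05) and the EBF-led share one of 0.15 (-0.05 to 0.35). The Tfap2d-led share had the ratio farthest from 0, -0.85 (-1.43 to -0.28), and since these members were fewer than 50 in injury, their genes were not compared. With at least 3 UMIs of the 5 genes the Sim1-led ratio was 0.14 (-0.23 to 0.52) and the Tfap2d-led one -0.65 (-1.36 to 0.05), so that neither interval excluded 0. With 1 UMI of Gad1 or Gad2 allowed the Sim1-led ratio was 0.22 (-0.08 to 0.52). With nuclei thinned to 3000 UMIs the Lmx1a-led ratio was -0.69 (-1.81 to 0.42). Without called doublets the EBF-led ratio was 0.23 (0.0013 to 0.46). Cluster 14 held 28 of the 218 Sim1-led injury members and 3 of the 135 in sham, and cluster 13 held 49 of the 497 EBF-led injury members and 1 of the 351 in sham.

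The levels of the rule genes are a description, since these genes chose the members. Ebf2 stood at 87.7 CPM in sham and 159 CPM in injury members, a log2 ratio of 0.86 (0.73 to 0.99), and cluster 13 held 26.1% of its UMIs in injury. Without the 2 mostly-injury clusters the Ebf2 ratio was 0.50 and that of Tfap2d -0.59, so that which of them lay farther from 0 depended on those clusters. Ebf3 stood at 169 and 182 CPM, Sim1 at 81.8 and 104 CPM, Lmx1a at 72.3 and 56.4 CPM and Tfap2d at 38.2 and 24.0 CPM, the last with a ratio of -0.67 (-0.92 to -0.42). Within Sim1-led and Lmx1a-led members outside the 5 clusters, Sim1 had a ratio of 0.02 (-0.16 to 0.19) and Lmx1a one of -0.02 (-0.25 to 0.20).

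Reln, which the rule did not use, stood at 132 CPM in both libraries, with a ratio of -0.00 (-0.12 to 0.12). The equality of level did not hold in every class. In Sim1-led members Reln stood at 77.9 CPM in sham and 158 CPM in injury, and outside the 5 clusters its ratio there was 1.34 (0.99 to 1.71). In EBF-led members outside the 5 clusters it was -0.00 (-0.21 to 0.20), and in cluster 0, where Reln is a leading gene, -0.34 (-0.57 to -0.11). Ebf1 had ratios of 1.38 (1.06 to 1.71) in Sim1-led and -0.07 (-0.17 to 0.02) in EBF-led members outside the 5 clusters. In Lmx1a-led members over all clusters the ratio was 0.09 (-0.35 to 0.54) for Reln and 0.60 for Ebf1. These genes were thus not alike in every class, and the difference was not tested. In cluster 1, which holds the largest part of the Sim1-led members, Ebf1 went from 71 UMIs in sham to 607 in injury, and Ebf2 from 28 to 264. Of those outside the 5 clusters, cluster 1 held 51 of 110 sham and 97 of 155 injury Sim1-led members and cluster 6 held 35 and 27, and Reln stood at 196 CPM in cluster 1 and 50.2 CPM in cluster 6. For the Sim1-led members as for cluster 1, a change of one cell type cannot be told apart from a different mix of types.

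Over all genes the members of the libraries were close. Of 13656 genes with at least 50 UMIs in members, 100 (0.732%) were at least 2 times as high in injury and 49 (0.359%) at most at the reciprocal of that, and the median log2 ratio of 16119 genes with at least 20 UMIs was -0.01. Of the genes past the fold 67.1% were higher in injury, against 53.4% when clusters were weighted alike in both libraries. In nuclei with none of the 5 genes, 44 of 13629 of the same genes (0.323%) were past the fold upward and 6 (0.0440%) downward, on sums of 73431188 sham and 80234960 injury UMIs, which carry less counting error. EBF-led members had 64 of 11622 genes upward (0.551%) and 37 downward (0.318%), Sim1-led members 65 of 8983 (0.724%) and 36 (0.401%), and Lmx1a-led members 51 of 7140 (0.714%) and 28 (0.392%).

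**Figure D4:**
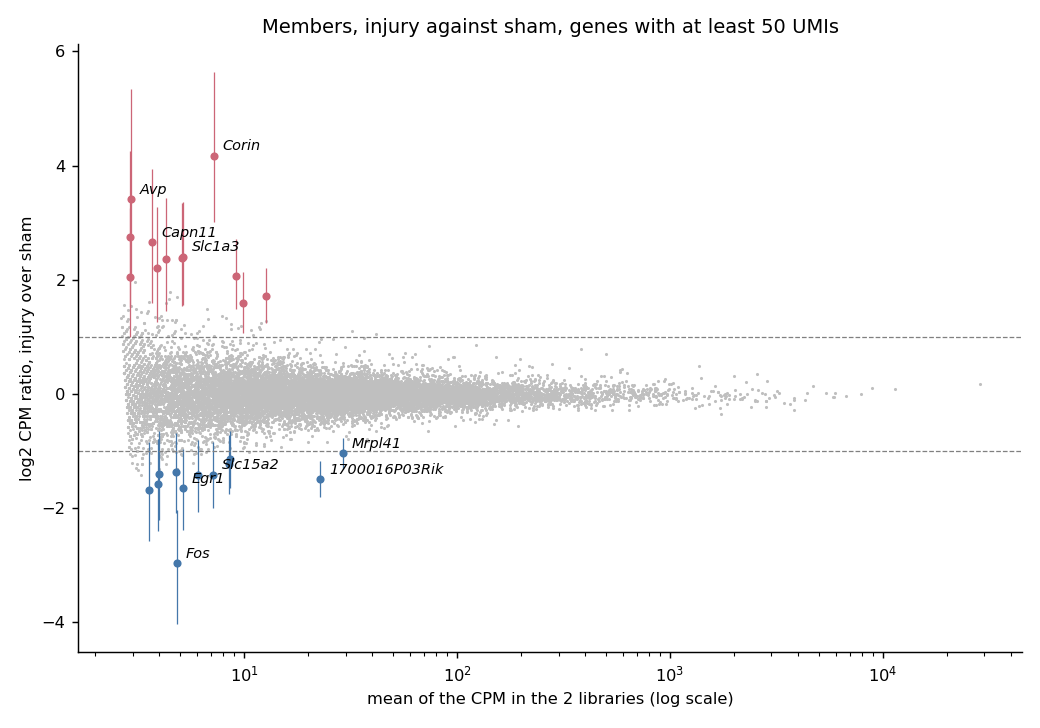
Log2 ratio of CPM, injury over sham (y axis), against the mean CPM of the libraries (x axis, log scale) for 13656 genes in members. Red and blue points are the 12 genes named in each direction with their 95% intervals of counting error, and dashed lines mark a log2 ratio of 1 and -1. Corin lies highest among the named genes at 4.17 and Fos lowest at -2.97.

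The 12 genes named as higher in injury fell into 3 kinds. The first had most of its UMIs in the mostly-injury clusters. Corin, which encodes a membrane serine protease, went from 6 UMIs in sham to 137 in injury members, with a log2 ratio of 4.17 (3.01 to 5.65), and clusters 13 and 14 held 77.4% of the injury UMIs. Agtr1a, an angiotensin II receptor gene, was at 13 and 86 UMIs (log2 ratio 2.39, 1.54 to 3.35), with 77.9% in those clusters. Adgrd1 (69.1%), Samd3 (63.9%) and Col9a1 (55.3%) were also mostly there. In nuclei with none of the 5 genes, which those clusters do not hold, Samd3 had a ratio of 1.43 (0.82 to 2.06). Corin, Agtr1a, Adgrd1 and Col9a1 had ratios of 0.38, 0.02, 0.12 and 0.09 in the same nuclei. Outside the 5 clusters Corin had 6 and 18 UMIs (log2 ratio 1.43, 0.03 to 3.05), and Agtr1a had 5 and 9 UMIs, 0.69 (-1.04 to 2.62).

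The second kind had most of its UMIs in the mixed clusters. Slc1a3, an astrocyte glutamate transporter gene, was at 13 and 87 UMIs (log2 ratio 2.40, 1.55 to 3.37), and 70.0% of its UMIs lay in clusters 5, 8 and 10. Mobp, a myelin gene of oligodendrocytes, was at 39 and 148 UMIs (log2 ratio 1.58, 1.07 to 2.13), with 74.9% there. Prr5l (85.1%), C030029H02Rik (73.7%) and Megf10 (58.7%) lay there too. Away from the 5 clusters Slc1a3 had 10 and 19 UMIs (log2 ratio 0.77, -0.41 to 2.04), Mobp 14 and 27 (0.79, -0.19 to 1.84) and Prr5l 17 and 14 (-0.44, -1.57 to 0.67). C030029H02Rik had 2 and 11 UMIs (2.30, 0.11 to 5.52) and Megf10 4 and 13 (1.54, -0.15 to 3.62) there. In nuclei with none of the 5 genes the ratios were 1.14 for Slc1a3, 1.08 for Mobp, 1.41 for Prr5l, 1.02 for C030029H02Rik and 1.47 for Megf10. Over whole lists, the 8 oligodendrocyte markers summed to 99.2 CPM in sham and 149.8 CPM in injury members and 7 of them were higher in injury. The 7 astrocyte markers summed to 121 and 162 CPM, with 6 higher in injury, and in both lists no marker was at 0. The 7 microglia markers summed to 118 and 134 CPM, a log2 ratio of 0.18 (0.06 to 0.30), with 6 higher in injury and Tmem119 at 0. Only 3 of the 7 had at least 20 UMIs in members, so the number of microglia markers higher in injury includes genes with very few UMIs. Nuclei with none of the 5 genes had these 3 lists at 95.2 and 153 CPM, at 330 and 341 CPM and at 114 and 121 CPM, and the part of such RNA in the ratios above was not tested.

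The third kind stayed outside both. Avp, which encodes the peptide hormone vasopressin, had 4 UMIs in sham and 54 in injury members, a ratio of 3.42 (1.98 to 5.34), and outside the 5 clusters 1 and 49. Of the 54, 43 were in Sim1-led members and 42 in the 15 injury nuclei of cluster 11, the paraventricular hypothalamic-like one, whose 11 sham nuclei had 1 UMI. The Avp difference thus lay mostly in 15 nuclei. Nuclei with none of the 5 genes had 3 and 23 UMIs of it. Capn11, a calpain protease gene, was at 8 and 64 UMIs (log2 ratio 2.66, 1.60 to 3.93), and outside the 5 clusters 7 and 46, a ratio of 2.56 (1.40 to 3.95). In EBF-led members outside those clusters it had 6 and 27 UMIs, 0 and 11 in Sim1-led and 0 and 4 in Lmx1a-led members. Its ratio in nuclei with none of the 5 genes was 2.37 (1.99 to 2.77), close to that of the members.

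The 12 genes named as lower in injury held 0 to 28.0% of their injury UMIs in clusters 13 and 14, and 12.7 to 36.5% of all their UMIs in the mixed clusters. Fos, an immediate early gene of the AP-1 family that neuronal activity induces, had 68 UMIs in sham and 11 in injury members, 8.57 and 1.10 CPM, a log2 ratio of -2.97 (-4.04 to -2.04). Outside the 5 clusters it had 63 and 6 UMIs (log2 ratio -3.55, -5.05 to -2.35), and in nuclei with none of the 5 genes the ratio was -1.70 (-2.02 to -1.39). By class, it had 25 and 4 UMIs in EBF-led, 14 and 2 in Sim1-led and 20 and 0 in Lmx1a-led members outside the 5 clusters. Egr1, a zinc-finger immediate early gene, was at 62 and 25 UMIs (log2 ratio -1.65, -2.38 to -0.96), and Nr4a3, an orphan nuclear receptor gene, 94 and 54, a ratio of -1.14 (-1.65 to -0.64). Outside the 5 clusters Egr1 had 51 and 13 UMIs (log2 ratio -2.13, -3.13 to -1.23), and Nr4a3 73 and 21, a ratio of -1.95 (-2.73 to -1.24). For Nr4a3 the classes gave -2.53 (-4.25 to -1.17) in Lmx1a-led, -2.41 (-4.19 to -0.94) in Sim1-led and -1.12 (-2.39 to 0.08) in EBF-led members there, and the differences between them were not tested. In the mixed clusters Nr4a3 had 21 UMIs in sham and 33 in injury, a ratio of 0.16 (-0.67 to 1.02).

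1700016P03Rik, the host transcript of the miR-132 and miR-212 hairpins, which neuronal activity induces, was also lower in injury. It was counted at 266 UMIs in sham and 120 in injury members, 33.5 and 11.95 CPM, a log2 ratio of -1.49 (-1.81 to -1.17). Outside the 5 clusters the ratio was -1.51 (-1.89 to -1.15), with 220 and 86 UMIs. By class over all clusters the ratio was -1.81 (-2.31 to -1.33) in EBF-led, -1.12 (-1.77 to -0.48) in Sim1-led and -1.47 (-2.29 to -0.71) in Lmx1a-led members. The level was thus lower in injury in all 3 classes, and in nuclei with none of the 5 genes it stood at 12.3 and 6.78 CPM, a ratio of -0.86 (-1.02 to -0.71). The transcript lies on the plus strand at chr11:75172560-75177633 (GRCm38). The mature microRNAs inside it are shown because the main arms of both share a seed, the bases 2 to 8 printed in capitals, and so can pair with the same target letters. The sequences are those of RefSeq on GRCm38.p6, and the counts are of the host transcript, not of the mature microRNAs. Ovca2 overlaps it on the opposite strand, and reads of the pair cannot be told apart.
mmu-miR-132-3p: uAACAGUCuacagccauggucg
mmu-miR-212-3p: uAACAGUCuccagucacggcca
The first lies at chr11:75173723-75173744 and the second at chr11:75173443-75173464. Their shared seed is AACAGUC, and the letters after it are not all the same.

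The other genes named as lower in injury were Slc15a2, a peptide transporter gene, with 82 and 39 UMIs and a ratio of -1.41, Gadd45g (43 and 17), Col6a1 (70 and 33), Hapln4, a link protein of perineuronal nets (47 and 20), Mrpl41, a mitochondrial ribosomal protein gene (310 and 191), Tomm6, a mitochondrial import gene (55 and 27), Gm26879 (94 and 51) and 1110008P14Rik (46 and 22). Their ratios ran from -1.68 to -1.04. In nuclei with none of the 5 genes Col6a1 had a ratio of 0.27 (-0.26 to 0.81) and Hapln4 one of -0.20 (-0.49 to 0.09), and the other 6 had ratios from -1.25 to -0.48. Slc15a2, Gm26879, Tomm6 and 1110008P14Rik overlap other genes on the opposite strand.

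Gene lists were described by the ratios of their measured genes, taken with a prior of 0.5 UMI. Of 15 immediate early genes with at least 20 UMIs, 14 were lower and 1 was higher in injury, with a median log2 ratio of -0.46 beside -0.01 for all genes. Without the prior Arc and Jun both lay at 0.01. Of those with at least 50 UMIs, 4 (Fos, Egr1, Nr4a3 and Junb) were past the fold downward, against 0.359% of all genes with at least 50 UMIs, and Fosl2, with 34 and 15 UMIs, had a ratio of -1.52 (-2.50 to -0.60). Jun, at 37 and 47 UMIs, had a ratio of 0.01 (-0.65 to 0.67), Nr4a2 one of -0.21 (-0.46 to 0.04) and Homer1, a postsynaptic scaffold gene, one of -0.32 (-0.49 to -0.16). Outside the 5 clusters 11 of 13 were lower, with a median of -0.92. Different genes reached 20 UMIs in different clusters, so list medians cannot be compared between clusters. In clusters 0, 1, 2, 4 and 6, all of which had enough UMIs of both, Homer1 had ratios of -0.23, -0.30, -0.18, -0.27 and -0.38, and Nr4a1 had ratios of -1.14, -0.67, 0.36, -1.33 and -0.79. In cluster 6 none of 6 measured genes was higher in injury, and Fos went from 22 UMIs in sham to 1 in injury and Nr4a3 from 20 to 0. In cluster 1, the largest, 2 of 4 were higher: Jun, with 3 and 17 UMIs (log2 ratio 1.66, -0.13 to 4.07), and Jund, with 5 and 15 (0.74, -0.79 to 2.56). In nuclei with none of the 5 genes the median was -0.38, with 15 of 20 lower.

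Ribosomal protein genes also lay mostly on one side. Of 77 measured, 71 were lower and 6 higher in injury, with a median of -0.31, and 1, Rpl32, was past the fold. Rpl6 stood at 60.0 and 58.9 CPM, a ratio of -0.03 (-0.20 to 0.15). Medians were -0.32, -0.41 and -0.35 in EBF-led, Sim1-led and Lmx1a-led members outside the 5 clusters, and -0.47 in nuclei with none of the 5 genes, where 76 of 77 were lower. The direction was thus the same in the 3 classes and in the nuclei with none of the 5 genes.

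Synaptic and channel lists lay near 0. Glutamate receptor and postsynaptic genes (34) had a median of 0.04, presynaptic release genes (24) one of 0.03, excitability channels (24) one of 0.01 and the reelin pathway (10) one of 0.02. Within them, Kcnma1, the BK potassium channel, had 1781 and 2216 CPM, a ratio of 0.32 (0.29 to 0.35), which was 0.28 (0.23 to 0.32) in EBF-led and 0.00 (-0.11 to 0.12) in Sim1-led members outside the 5 clusters. Src, a kinase that acts downstream of reelin receptors, had 31.5 and 43.8 CPM, a ratio of 0.48 (0.25 to 0.71), while the reelin receptor gene Vldlr had 35.4 and 28.5 CPM, a ratio of -0.31 (-0.56 to -0.07). Vamp2, a vesicle fusion gene, had 23.2 and 15.3 CPM, a ratio of -0.60 (-0.91 to -0.28). The nuclei with none of the 5 genes had ratios of the same sign: 0.14 (0.13 to 0.15) for Kcnma1, 0.43 (0.37 to 0.49) for Src, -0.22 (-0.31 to -0.13) for Vldlr and -0.47 (-0.57 to -0.36) for Vamp2. EBF, SIM, LMX and AP-2 family genes and partners (14) had a median of 0.06 and transmitter identity genes (8) one of 0.17, with Chat at 63 and 148 UMIs, of which cluster 9 held 48 and 83 and mixed cluster 8 held 8 and 50. Axon injury and stress genes (13) had a median of -0.15, against -0.15 in nuclei with none of the 5 genes, and Gap43, a growth cone gene, had a ratio of -0.21 (-0.29 to -0.12) against -0.13 (-0.16 to -0.10).

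Neuropeptide genes were split. Of 16 measured, 8 were higher and 8 lower in injury, with a median of 0.13 that turned to -0.52 over 12 genes outside the 5 clusters. Adcyap1 had 154 UMIs in sham and 103 in injury, a ratio of -0.92 (-1.29 to -0.55), and outside the 5 clusters -0.95 (-1.37 to -0.54). Tac1 had 104 and 69, a ratio of -0.93 (-1.39 to -0.48), and Vgf, an activity-regulated secreted peptide precursor, 105 and 73, a ratio of -0.86 (-1.31 to -0.42). Oxt had 120 and 107 UMIs, a ratio of -0.50 (-0.89 to -0.12), with 117 and 98 of them in Sim1-led members, where Avp was higher in injury. Cluster 11 alone, with 11 sham and 15 injury nuclei, held 101 and 62 of these UMIs, and with the mean CPM of single nuclei the Oxt ratio was 0.0043, so its direction depends on the weighting. In nuclei with none of the 5 genes Adcyap1, Tac1 and Vgf had ratios of -0.27, -0.28 and -0.36, and Oxt lay on the other side at 1.16 (0.50 to 1.86).

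**Figure D5:**
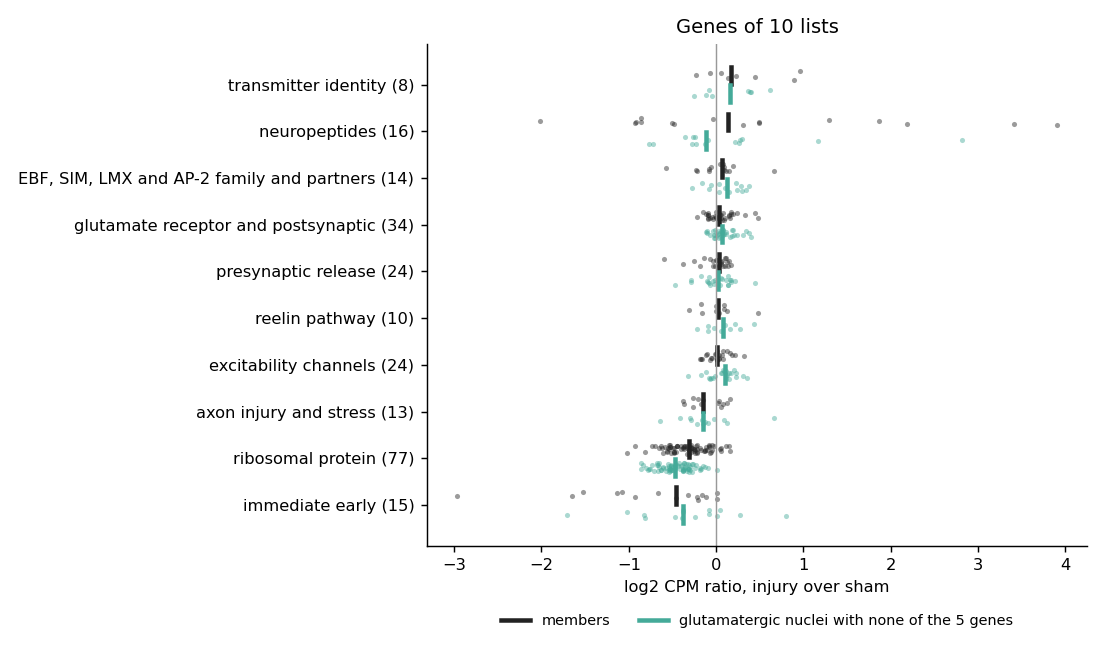
Log2 ratio of CPM, injury over sham (x axis), of the genes of 10 lists (y axis, number of genes measured in members in brackets). Points are genes measured in members, in members (black) and in glutamatergic nuclei with none of the 5 genes (green), and vertical bars are medians over the genes measured in each. The immediate early list lies lowest, with a median of -0.46 in members, and the ribosomal list at -0.31.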

How the data were processed

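Nuclei were sequenced as 1 droplet library per group. The authors made the deposited UMI counts with Cell Ranger 6.0.2, named in the submitters' processing notes, against GRCm38. The use of introns and strand and the annotation release are not given in the sources used here. The deposited tables hold raw counts for 32285 genes, of which 32235 took a symbol from GENCODE M21. The other genes kept their identifiers. Nuclei with 200 to 7500 genes and at most 2% mitochondrial UMIs were kept. This removed 17 sham and 51 injury barcodes. Of the barcodes, 101 occurred in both libraries, among them those of 5 sham and 3 injury members. Doublets were kept. Scrublet (scanpy 1.11.5) called those with the highest scores at 0.8% per 1000 nuclei.

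Counts were summed over nuclei per library and scaled to CPM. Ratios carry exact binomial 95% intervals, shares Clopper-Pearson intervals and CPM values Poisson intervals, all for counting error only. Genes past the fold had at least 50 UMIs and a log2 ratio of at least 1 or at most -1. List genes had at least 20 UMIs, with a prior of 0.5 UMI in the medians. Clusters were Leiden clusters at resolution 0.5 on 2000 variable genes and 20 principal components, centred within each library. Named genes were the rule genes, Reln and Slc17a6, the 12 genes in each direction whose interval lay farthest from 0, the 12 with the largest fold over other glutamatergic nuclei, up to 5 per leading gene, and in each list the 3 with most UMIs and the 3 farthest from 0. Alternatives used edgeR 4.0.16 (TMM), DESeq2 1.42.0 (size factors), other filters and other weightings. Other genes of the lists, markers and clusters were named after their values were seen. Scripts were tested on simulated data. The members and lists were chosen with earlier results of these data known. Of the genes named by these rules, 2 are not reported here.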

Additional observations from a re-analysis of the deposited data

Results flagged for a closer look

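In 4 genes the leading-gene classes lay on opposite sides of 0 in the comparison of injury with sham, each interval excluding 0, and the differences were not tested, since each class has 1 library per group. The share of all genes that do so is not given, so the count of 4 is not read as a result. Ebf1 had a log2 ratio of -0.09 in EBF-led members, 0.99 in Sim1-led members and 0.60 in Lmx1a-led members, differences of -1.08 and -0.69. Dlg2, a postsynaptic scaffold gene, had -0.19 in EBF-led and 0.08 in Lmx1a-led members, a difference of -0.27. Syt1, the calcium sensor of vesicle release, had -0.07 and 0.09 in the same classes, a difference of -0.17. Nrxn3, a presynaptic adhesion gene, had 0.18 in EBF-led members against -0.17 in Sim1-led and -0.19 in Lmx1a-led members, differences of 0.35 and 0.36. Clusters 13 and 14 held 11.7% of the Nrxn3 UMIs of injury members. Outside the mostly-injury and mixed clusters, Ebf1 had -0.07 (-0.17 to 0.02), Syt1 -0.04 (-0.10 to 0.01) and Nrxn3 0.02 (-0.04 to 0.08) in EBF-led members, and those 3 intervals include 0.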

How the results depend on the processing

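No paired analysis was possible because only 1 library exists per group. Counting error is the only error measured, and neither the spread between mice nor that between libraries can be seen, so no difference is known to exceed it. The members' share of nuclei was 3.12% in sham and 3.21% in injury with at least 3 UMIs of the 5 genes, 1.19% and 1.44% with nuclei thinned to 3000 UMIs and 4.13% and 3.74% without called doublets, and 4.70% and 4.54% with 1 UMI of Gad1 or Gad2 allowed. The share of glutamatergic nuclei was 6.37% and 8.28% with at least 3 UMIs, 3.84% and 5.77% when thinned, and 8.57% and 9.91% without called doublets. The thinned log2 ratios of these shares were 0.28 and 0.59. Genes past the fold downward numbered 80 with the mean CPM of single nuclei, and 309 were higher and 160 lower with at least 20 UMIs, and 1191 and 968 with no filter on low counts. The alternatives that weighted clusters alike or left out clusters or shared barcodes were chosen after seeing the data. With clusters weighted alike, 71 were higher and 62 lower, so that 53.4% of those past the fold were higher against 67.1%, and without called doublets 67 and 47 (58.8%). The other alternatives gave 69 to 139 higher and 46 to 80 lower, with 139 for the mean CPM of single nuclei, 69 (58.5%) without clusters mostly of called doublets and 74 (60.7%) without those mostly of the injury library. Medians of all 10 lists stayed within their order-statistic intervals, in 120 comparisons, although those of the reelin, glutamate receptor, neuropeptide and channel lists crossed 0. The sign turned for Ebf3 (-0.055) without the clusters mostly of the injury library, Prr5l (-0.11) without clusters mostly of called doublets, Grin2c (-0.14) without called doublets, and Ebf1 (-0.041) and Oxt (0.0043) with the mean CPM of single nuclei. The cause of these shifts was not tested. Of the ratios of named genes, 738 stayed within their intervals, 87 left them and 5, whose intervals excluded 0, turned sign, as given. Ratios with an interval that includes 0, such as that of Reln, were not counted as turning. Fos lay between -4.11 and -2.89 and 1700016P03Rik between -1.74 and -1.31 under all 10 alternatives.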

Other observations

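Several peptide and hypothalamic genes had few UMIs and were chosen here after their values were seen. Vip had 1 UMI in sham and 19 in injury members, 15 of the 19 in Lmx1a-led members. Hcrt, which encodes orexin, had 5 and 23 UMIs, 20 of the 23 in EBF-led members, and Pdyn had 4 and 23. Otp had 17 and 68 UMIs, 15 and 50 of them in Sim1-led members. Th, the tyrosine hydroxylase gene, had 15 and 37, with 8 and 30 in Sim1-led members. Grp went the other way, with 16 UMIs in sham and 5 in injury. Vip, Hcrt, Pdyn and Avp each had at most 5 UMIs in sham members, so their folds rest on very few molecules.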
